A study of Mus musculus with 14 samples.

Results

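The 10 genes described here are transcripts by which the activation state of macrophages is commonly read. Nos2, Acod1, Ptgs2 and Tnf were taken as the inflammatory genes, and Arg1, Chil3, Retnla, Mrc1, Cd163 and Il10 as the repair-type genes. They were chosen by symbol: a probe set was used where the array annotation gave it only that symbol, and each of the 10 genes had 1 such probe set, out of 19938 genes measured. RNA came from plantaris muscle of male C57BL/6J mice aged 5 months, after synergist ablation, an operation that removes the muscles sharing the load of the plantaris and so overloads it. Pools taken on days 1, 3, 5, 7, 10 and 14 of overload were compared with pools of day 0. Each of the 7 days had 2 Affymetrix Mouse Gene 1.0 ST arrays, 1 from a pool of right and 1 from a pool of left muscles, and each pool came from 6 animals, which gives 14 arrays in all. The labels name no sham operation, so overload, surgery and elapsed time cannot be told apart, and whether both pools of 1 day used the same mice is not given. The p-values therefore describe pool-to-pool spread alone.

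Macrophages reach injured or overloaded muscle mainly as blood monocytes and change what they express as the tissue clears debris and rebuilds. Bacterial products and interferon gamma induce an inflammatory state marked by nitric oxide, itaconate, prostaglandin and tumour necrosis factor synthesis. Interleukin 4, interleukin 13 and interleukin 10 induce states that favour arginase, scavenger receptors and secreted lectin-like proteins. Several of the 10 genes are also made by cells other than macrophages, and in whole muscle more cells of a type and more RNA per cell cannot be told apart.

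The labelled tissue was plain in the arrays: the creatine kinase transcript Ckm, which muscle fibres make, had a log2 intensity of 14.30 in both pools of day 0. Markers of macrophages were present and increased, with 13 of 15 measured markers called higher on day 1 and 15 of 15 on day 3. Their summed intensity lay between 7195 and 8018 on day 0, between 30343 and 31424 on day 1, between 48795 and 49966 on day 3, and between 24117 and 25832 on day 14. Retnla ran against these markers, as described further on. No marker was listed at 0, since the lowest intensity on any array was 5.9. Left muscle of day 0 and right muscle of day 1 stood apart: their summed hepatocyte markers reached 86795 and 94507, against 21750 in the right pool of day 0 and 28921 in the left pool of day 1. Pools of later days had lower sums but differed too. The right and left pools had 7004 and 25512.5 on day 5, and 9794 and 23480 on day 10. With both pools that stood apart left out, Arg1 on day 14 (a log2 difference of -0.43) and Retnla from day 1 to day 3 (-0.68) lost their calls. Cd163 on day 10 (-0.43) gained one, and Chil3 is described further on. Changes in the steps from day 3 to day 5 and from day 5 to day 7 are given as counts of genes. Counts over gene lists that changed without both pools are given with and without them. Without them 11 of the 15 macrophage markers were called higher on day 1. Between left and right pools limma called 0 of the 10 genes and 0% of all genes at an adjusted p under 0.05, with 2 of the 10 (Il10 and Cd163) and 586 of all genes at an unadjusted p under 0.05.

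Of the 10 genes, 7 had an entry in the RefSeq promoter table of build GRCm38.p6. The 250 bases before the start are printed, 5′ to 3′ on the gene's own strand, for the 3 inflammatory genes with an entry, which rose together on day 1, and for Retnla, which fell on that day. Capitals mark matches to the motifs named after the sequences.

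Acod1: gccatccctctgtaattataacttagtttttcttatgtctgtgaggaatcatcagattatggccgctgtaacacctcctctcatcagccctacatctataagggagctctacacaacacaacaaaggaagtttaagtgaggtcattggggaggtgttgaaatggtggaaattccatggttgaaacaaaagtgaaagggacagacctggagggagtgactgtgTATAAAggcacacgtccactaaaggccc

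Tnf: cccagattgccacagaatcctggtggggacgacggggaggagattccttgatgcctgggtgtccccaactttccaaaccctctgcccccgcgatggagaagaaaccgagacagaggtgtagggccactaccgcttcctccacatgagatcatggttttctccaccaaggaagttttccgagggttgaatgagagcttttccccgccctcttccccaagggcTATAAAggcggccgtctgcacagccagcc

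Ptgs2: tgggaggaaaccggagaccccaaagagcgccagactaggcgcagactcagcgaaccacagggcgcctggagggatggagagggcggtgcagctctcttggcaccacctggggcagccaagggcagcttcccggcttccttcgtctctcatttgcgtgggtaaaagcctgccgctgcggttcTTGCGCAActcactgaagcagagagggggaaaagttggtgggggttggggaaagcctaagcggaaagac

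Retnla: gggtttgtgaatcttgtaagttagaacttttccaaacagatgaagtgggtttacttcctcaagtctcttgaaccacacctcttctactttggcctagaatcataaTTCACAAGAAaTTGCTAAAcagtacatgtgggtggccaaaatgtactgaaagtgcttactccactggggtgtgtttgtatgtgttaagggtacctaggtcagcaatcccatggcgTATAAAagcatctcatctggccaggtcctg

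These windows lie at chr14:103046762-103047011 (plus strand) for Acod1, chr17:35202008-35202257 (minus strand) for Tnf, chr1:150099781-150100030 (plus strand) for Ptgs2 and chr16:48842359-48842608 (plus strand) for Retnla. Motifs were searched on both strands: the TATA box TATAAA, AP-1 TGANTCA, a gamma-activated STAT element TTCNNNGAA, a STAT6 element TTCNNNNGAA, C/EBP TTGCNNAA, the cAMP response element TGACGTCA, and NF-kappaB by its consensus. Acod1 had the TATA box 28 to 23 bases before the start, Tnf at 29 to 24 and Retnla at 30 to 25, a motif held by 12.4% of 32851 promoter windows of this length. Ptgs2 had the C/EBP match TTGCGCAA at 69 to 62 bases before the start, and Retnla had TTGCTAAA at 134 to 127, against 9.56% of all windows. Retnla also had the STAT6 match TTCACAAGAA at 145 to 136 bases before the start, against 5.85%. Among the other genes with an entry, Chil3 had the gamma-activated match TTCTTAGAA at 172 to 164 bases before the start, against 7.02%, and the windows of Mrc1 and Cd163 had no match. AP-1 (6.75% of all windows), the cAMP response element (1.55%) and NF-kappaB (7.25%) had no match in any of the 7 windows, which says only that these letters are not within them.

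On day 1 all 4 inflammatory genes rose, and 4 of the 6 repair-type genes rose with them. The background was high, since 20.3% of all genes were called higher and 34.7% lower on that day (limma, Benjamini-Hochberg adjusted p under 0.05). By day 3 the inflammatory genes were past their highest level, while Mrc1 and Cd163 were higher than on day 1. Retnla alone was lower than on day 0 on both days. Over the whole time course each of the 10 genes was called in limma's moderated F test, as were 71.3% of all genes. The plot of log2 intensity by gene shows the separate time courses.

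**Figure D1:**
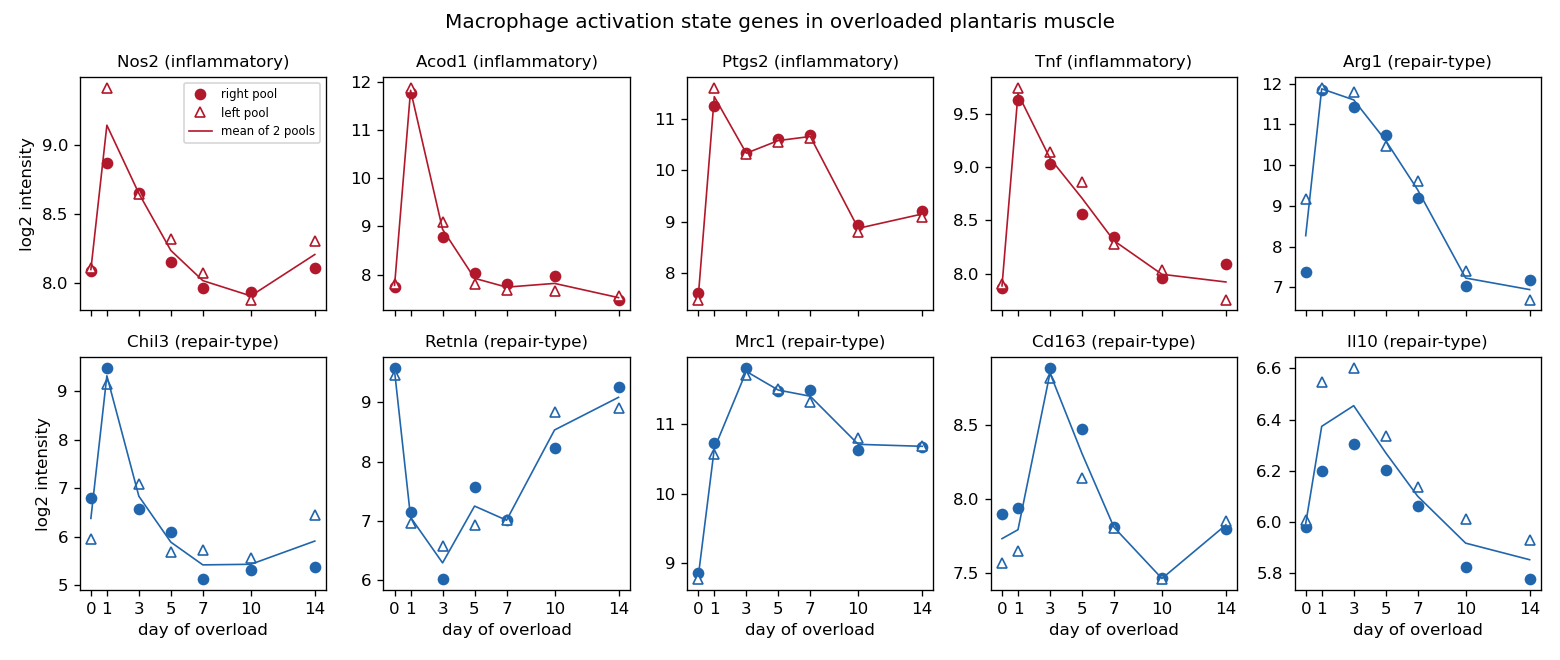
Log2 intensity (vertical axis, its own range in each panel) of the 10 genes against the day of overload (horizontal axis). Filled circles are right pools, open triangles left pools and lines the mean of the 2 pools; inflammatory genes are red and repair-type genes blue. In 6 panels the highest mean is on day 1, while Mrc1, Cd163 and Il10 have it on day 3, and Retnla has it on day 0.

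Acod1 encodes the enzyme that makes itaconate from cis-aconitate and had the largest fitted rise of the inflammatory genes on day 1, with Ptgs2 within their errors of it. Its intensity was 214 in the right and 225 in the left pool of day 0, then 3488 and 3752 on day 1, 439 and 547 on day 3, and 262 and 225 on day 5. It was 223 and 204 on day 7, 251 and 203 on day 10, and 179 and 189 on day 14. The pools of days 1 and 3 lay above all others and did not overlap with each other, and the pools of day 7 overlapped with day 0, as did those of day 10, while day 5 overlapped with day 10. The log2 difference from day 0 was 4.05 ± 0.13 (SE, n = 2 pools per day) on day 1, which is 16.5-fold (limma, adjusted p = 1.64e-09), and 1.16 ± 0.13 on day 3, which is 2.24-fold (adjusted p = 1.41e-05). From day 1 to day 3 Acod1 fell 7.38-fold (limma, adjusted p = 2.94e-07), and no later day was called against day 0.

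Ptgs2 encodes cyclooxygenase 2, the inducible enzyme of prostaglandin synthesis, and unlike Acod1 it was above day 0 on every later day. It read 195 and 179 on day 0, 2461 and 3129 on day 1, 1302 and 1285 on day 3, and 1562 and 1506 on day 5. On day 7 it read 1657 and 1586, on day 10 493 and 446, and on day 14 592 and 547. All 12 later pools lay above both pools of day 0, with a plateau from day 3 to day 7 between the peak of day 1 and the lower level of days 10 and 14. The log2 difference was 3.89 ± 0.11 on day 1, which is 14.9-fold (limma, adjusted p = 7.51e-10), 3.12 on day 7, which is 8.68-fold (adjusted p = 2.55e-09), and 1.61 on day 14, which is 3.05-fold (adjusted p = 6.06e-07). The step from day 7 to day 10 was a 3.46-fold fall (limma, adjusted p = 3.96e-05).

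Tnf encodes tumour necrosis factor, the cytokine that activates endothelium and leukocytes. Its intensity was 234 and 239 on day 0, 795 and 859 on day 1, 522 and 565 on day 3, and 377 and 465 on day 5. It came to 324 and 310.5 on day 7, 248 and 262 on day 10, and 272 and 216 on day 14. The pools of days 1, 3, 5 and 7 were each above all pools of the following sampled day, and day 14 overlapped with days 0 and 10. The rise was 3.50-fold on day 1, a log2 difference of 1.81 ± 0.12 (limma, adjusted p = 3.21e-07), and the differences of 1.20 on day 3, 0.82 on day 5 and 0.42 on day 7 were also called. The call on day 7 (adjusted p = 0.00914) ended without the right pool of that day (0.39, limma, adjusted p = 0.0547).

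Nos2, the inducible nitric oxide synthase that makes nitric oxide from arginine, had the smallest rise of the inflammatory genes. It measured 271 and 276 on day 0, 469 and 683 on day 1, 403 and 399.9 on day 3, and 284 and 319.7 on day 5. Later it measured 249.5 and 269 on day 7, 244 and 235 on day 10, and 276 and 316 on day 14. Both pools of day 1 were above both pools of day 3, which were above all others, although the left pool of day 1 was well above the right one. The log2 difference was 1.05 ± 0.14 on day 1 (limma, adjusted p = 9.26e-05) and 0.55 on day 3 (adjusted p = 0.00756), and no later day was called.

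Of the repair-type genes, Arg1 had the widest range, with a 30.4-fold span between its highest and lowest day means. It encodes arginase 1, which splits arginine into ornithine and urea and is abundant in liver as well as in macrophages activated by interleukin 4. Its intensity was 166 in the right and 574 in the left pool of day 0, 3683 and 3814 on day 1, 2732 and 3532 on day 3, and 1707 and 1418 on day 5. It was 584 and 775 on day 7, 132 and 170.5 on day 10, and 146 and 104 on day 14. The pools of days 1, 3, 5 and 7 lay in falling order without overlap, but the pools of day 0 differed widely and overlapped with day 10.

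Against day 0, Arg1 rose by 3.60 ± 0.43 on the log2 scale on day 1, which is 12.2-fold (limma, adjusted p = 3.26e-05), and by 3.33 on day 3 and 2.33 on day 5, both called. The left pool of day 0, where Arg1 was high, was also the pool with the high hepatocyte markers, in which Alb had a log2 intensity of 13.82 against 12.75 in the right pool. Of 16 hepatocyte markers, 13 were called lower than day 0 on day 7, and 0 without both pools that stood apart. With the mean of the hepatocyte markers as a covariate, the difference of Arg1 was 3.54 on day 1, 3.45 on day 3, 2.85 on day 5 and 1.76 on day 7, all called, and -0.82 on day 14, which was not (limma, adjusted p = 0.157). In the right pool of day 1, where Alb reached 14.00, Arg1 read 3683, against 3814 in the left pool. Whether hepatocyte RNA had a part in the level of Arg1 was not tested. Without the left pool of day 0 the difference of Arg1 was 4.50 on day 1, 4.23 on day 3, 3.23 on day 5 and 2.02 on day 7. Without the right pool of day 0 it was 2.71, 2.44, 1.44 and 0.23 on the same days, and the call on day 7 (1.12 with all pools, limma, adjusted p = 0.0385) ended (adjusted p = 0.442). The call on day 7 also ended without either pool of day 5 (1.12, adjusted p = 0.0514), without the right pool of day 7 (1.33, adjusted p = 0.0663) and without its left pool (0.92, adjusted p = 0.161). It ended as well under quantile normalization (1.02, adjusted p = 0.0804), with a trended and robust prior (adjusted p = 0.0955) and with only the arrays of days 0 and 7 (adjusted p = 0.114).

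The late differences of Arg1 depended on single pools too. On day 14 it fell to 2.50-fold below day 0, a log2 difference of -1.32 (limma, adjusted p = 0.0291), but without the left pool of day 0 the difference was -0.43 (adjusted p = 0.216). It was -2.22 and called without the right pool of day 0, and -1.08 and not called without the left pool of day 14 (limma, adjusted p = 0.169). That call ended too with a trended and robust prior (adjusted p = 0.0827) and with only the arrays of days 0 and 14 (adjusted p = 0.105). On day 10 the difference of -1.04 was not called (limma, adjusted p = 0.0639), and without the right pool of day 0 it was -1.94 and called (adjusted p = 0.000137). From day 7 to day 10 Arg1 fell 4.48-fold (limma, adjusted p = 0.00684), a call that ended without the right pool of day 10 (a log2 difference of -1.98, adjusted p = 0.0602). From day 3 to day 14 it fell 25.2-fold (limma, adjusted p = 1.15e-05), a log2 difference of -4.66 that was the lowest of all 19938 genes in that comparison.

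Mrc1, which encodes the mannose receptor CD206, a scavenger of glycoproteins, was highest on day 3, after the inflammatory genes, and stayed high. It read 463 and 435 on day 0, 1699 and 1515 on day 1, 3602 and 3346 on day 3, and 2864 and 2901 on day 5. On the later days it read 2870.3 and 2559 on day 7, 1578 and 1780.3 on day 10, and 1636 and 1651 on day 14. All 12 later pools were above day 0, both pools of day 3 were above all others, and days 1, 10 and 14 overlapped. The log2 difference was 1.84 ± 0.09 on day 1, which is 3.57-fold (limma, adjusted p = 3.85e-08), 2.95 on day 3, which is 7.74-fold (adjusted p = 1.90e-09), and 1.87 on day 14, which is 3.66-fold (adjusted p = 6.38e-08). From day 1 to day 3 Mrc1 rose a further 2.16-fold (limma, adjusted p = 6.67e-06).

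Cd163 encodes the receptor that takes up haptoglobin-haemoglobin complexes, and it was called only on days 3 and 5. Its intensity was 239 and 189.9 on day 0, 246 and 201 on day 1, 472 and 449 on day 3, and 356 and 282 on day 5. The values were 225 and 224 on day 7, 178 and 176 on day 10, and 223 and 231 on day 14. Day 1 overlapped with day 0, days 3 and 5 were above all others, and day 10 was below all others. The log2 difference was 0.06 ± 0.13 on day 1 (limma, adjusted p = 0.722), 1.11 on day 3, which is 2.16-fold (adjusted p = 2.81e-05), and 0.57 on day 5 (adjusted p = 0.00321). The rise from day 1 to day 3 was 2.08-fold (limma, adjusted p = 0.000134). On day 10 the difference of -0.27 was not called (limma, adjusted p = 0.112), but without the left pool of day 0 it was -0.43 and called (adjusted p = 0.0337).

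Il10 encodes interleukin 10, which restrains inflammatory cytokine synthesis, and it had the smallest span of the 10 genes. It was 63.0 and 64.3 on day 0, 73.5 and 93.5 on day 1, 79.1 and 97.2 on day 3, and 73.7 and 80.8 on day 5. It then was 66.8 and 70.4 on day 7, 56.6 and 64.4 on day 10, and 54.7 and 60.9 on day 14. Every pool of days 1, 3, 5 and 7 was above both pools of day 0, but days 1, 3 and 5 overlapped. The log2 difference was 0.38 ± 0.13 on day 1 (limma, adjusted p = 0.0271) and 0.46 on day 3, which is 1.38-fold (adjusted p = 0.0114). Both calls rested on single pools. Without the left pool of day 1 the difference on day 1 was 0.21 (limma, adjusted p = 0.223), and the call also ended without either pool of day 0 (adjusted p = 0.0919 without the right and 0.0727 without the left). Without the left pool of day 3 the difference on day 3 was 0.31 (limma, adjusted p = 0.121), and without the right pool of day 0 its adjusted p was 0.0508. Il10 and Chil3 were in the dimmest of 3 equal classes of genes by mean level.

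Chil3 encodes Ym1, a secreted chitinase-like protein that alternatively activated macrophages and also neutrophils make. It measured 112 and 61.7 on day 0, 718 and 570.0 on day 1, 95.5 and 136 on day 3, and 68.3 and 51.3 on day 5. The later values were 34.7 and 52.7 on day 7, 39.5 and 47.1 on day 10, and 41.6 and 86.9 on day 14. Only day 1 stood clear of all other days, and its time course was a single sharp peak, as that of Acod1 was. The log2 difference on day 1 was 2.94 ± 0.37, which is 7.70-fold (limma, adjusted p = 4.39e-05), and from day 1 to day 3 Chil3 fell 5.60-fold (adjusted p = 0.000375). It was called lower than day 0 on day 7 (-0.96, limma, adjusted p = 0.0380) and day 10 (-0.95, adjusted p = 0.04996). Without the right pool of day 0 the difference on day 7 was -0.53 and on day 10 -0.52, and without the right pool of day 7 the difference on day 7 was -0.66, none of them called. The call on day 7 also ended under quantile normalization (-0.91, limma, adjusted p = 0.0527) and with a trended and robust prior (adjusted p = 0.0891). The call on day 10 ended in 13 of 22 alternative settings, among them the fits without any 1 pool of days 3, 5, 7 or 10, whose differences lay between -1.07 and -0.82.

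Summed neutrophil markers were highest on day 1, as Chil3 and Acod1 were. On day 1, 11 of 16 measured neutrophil markers were called higher and 0 lower, and on day 3, 7 were higher and 0 lower. Without both pools that stood apart, 11 were higher and 3 lower on day 1, and 6 higher and 4 lower on day 3. Their summed intensity was 6958 in the left and 12988 in the right pool of day 0. The fit without both pools kept only that right pool, so its calls were made against the higher of the 2 sums. The sums ran from 37868 to 49003 on day 1, from 11680 to 18154 on day 3, and from 5987 to 6872 on day 5. The receptor Csf3r, which marks neutrophils, had intensities of 175.0 and 158.4 on day 0 and 2322 and 3988 on day 1. It then fell more slowly, to 1211 and 1565 on day 3 and 704.5 and 562 on day 5. On day 5 neither Chil3 nor Acod1 was called against day 0. The part of neutrophils in the levels of Chil3 and Acod1 was not tested.

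Retnla, which encodes the secreted resistin-like molecule alpha (Fizz1), was the repair-type gene that fell on day 1. It read 767 in the right and 706 in the left pool of day 0, 142 and 125 on day 1, 64.5 and 95.1 on day 3, and 189.9 and 122 on day 5. It read 129 and 129 on day 7, 302 and 455 on day 10, and 614 and 480.0 on day 14. Both pools of day 0 were above all others, and days 14 and 10 came next without overlap. The pools of days 1, 5 and 7 overlapped, and both pools of day 3 were below all others. On day 1 Retnla fell by 2.46 ± 0.25 on the log2 scale, 5.51-fold (limma, adjusted p = 8.16e-06), and on day 3 it was 9.39-fold lower than day 0 (adjusted p = 7.94e-07).

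The return of Retnla was late. It rose 2.87-fold from day 7 to day 10 (limma, adjusted p = 0.00266) and was 6.93-fold higher on day 14 than on day 3 (adjusted p = 8.36e-06). On day 10 it was 1.99-fold below day 0 (limma, adjusted p = 0.00618), a call that ended without the right pool of day 10 (a log2 difference of -0.69, adjusted p = 0.0704). On day 14 the log2 difference from day 0 was -0.44 ± 0.25 (adjusted p = 0.172). Adipocyte markers and muscle fibre markers were also lower and came back in part. Of 9 adipocyte markers, 7 were called lower on day 1, 6 on day 3, 8 on day 7 and 4 on day 14. Of all genes 34.7%, 23.4%, 37.8% and 20.7% were called lower on these days. The summed intensity of the adipocyte markers was 9444 to 9713 on day 0 and 5987 to 6174 on day 3. It was lowest on day 7, at 4534 to 5154, while Retnla was lowest on day 3, and it was 7585 to 7619 on day 14. On day 1 the adipocyte count was 6 without both pools that stood apart. Of 10 muscle fibre markers, 4 were called lower on day 1, where 34.7% of all genes were, 10 on day 3 and 2 on day 14; without both pools these counts were 2, 9 and 0. On day 14 the count of muscle fibre markers was near the 20.7% of all genes called lower. Whether either cell type had a part in the level of Retnla was not tested.

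**Figure D2:**
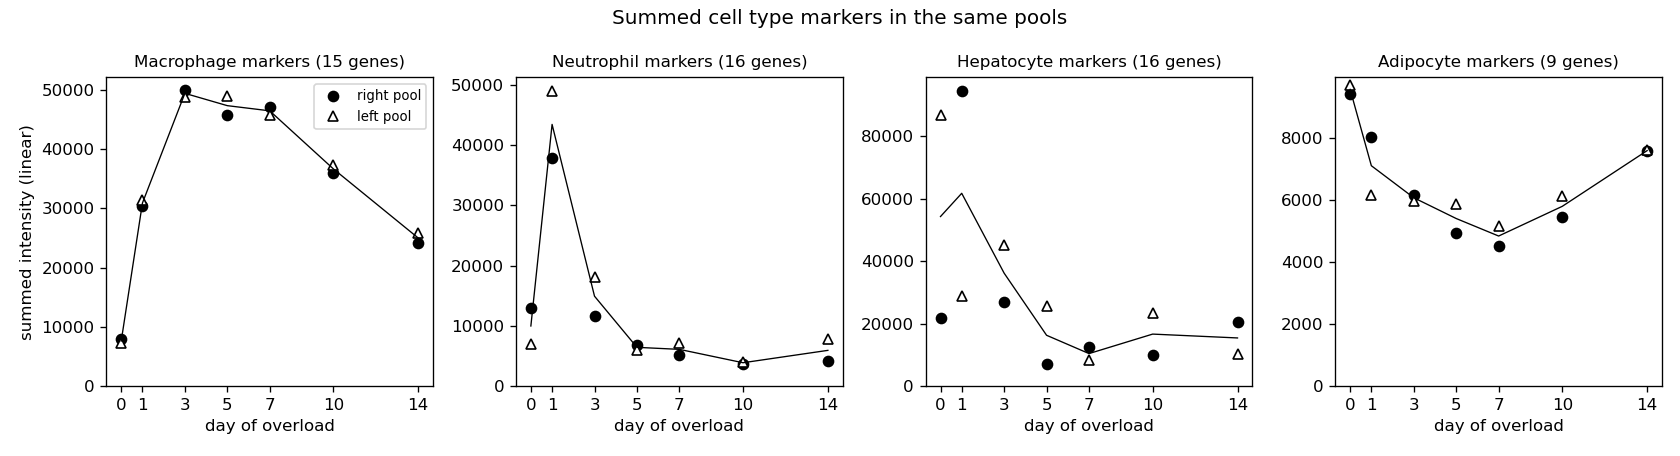
Summed linear intensity (vertical axis, starting at 0, its own range in each panel) of macrophage, neutrophil, hepatocyte and adipocyte markers against the day of overload. Filled circles are right pools, open triangles left pools and lines their mean; neutrophil markers peak on day 1 at 37868 to 49003, macrophage markers on day 3 at 48795 to 49966, and the hepatocyte markers differ between pools of the same day.

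On day 1 genes of both groups rose, all 4 inflammatory and 4 of 6 repair-type, and Retnla fell. The median log2 difference from day 0 was 2.85 for the inflammatory genes and 1.11 for the repair-type genes, against -0.14 for all genes. On day 3 all 4 inflammatory genes and 4 repair-type genes were higher, and Retnla was lower, beside 24.2% of all genes called higher and 23.4% lower. The medians on day 3 were 1.18 and 0.79. On day 5 Ptgs2 and Tnf remained higher, as did Arg1, Mrc1 and Cd163, with 27.0% of all genes called higher and 38.1% lower, and the medians were 0.49 and 0.43. The medians carry no test, because the genes were proposed with results of these data known.

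On day 7, 2 inflammatory genes (Ptgs2 and Tnf) and 2 repair-type genes (Arg1 and Mrc1) were called higher and 2 repair-type genes (Chil3 and Retnla) lower, beside 28.5% and 37.8% of all genes. On day 10 Ptgs2 and Mrc1 were the genes called higher and Chil3 and Retnla those called lower, beside 23.6% and 27.5% of all genes. On day 14 Ptgs2 and Mrc1 were again higher and Arg1 lower, beside 21.4% and 20.7%. The medians of the inflammatory genes were 0.19, 0.07 and 0.07 on days 7, 10 and 14, and those of the repair-type genes were 0.09, -0.61 and -0.29. So 1 gene of each group, Ptgs2 and Mrc1, was still above day 0 at the end of the series.

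**Figure D3:**
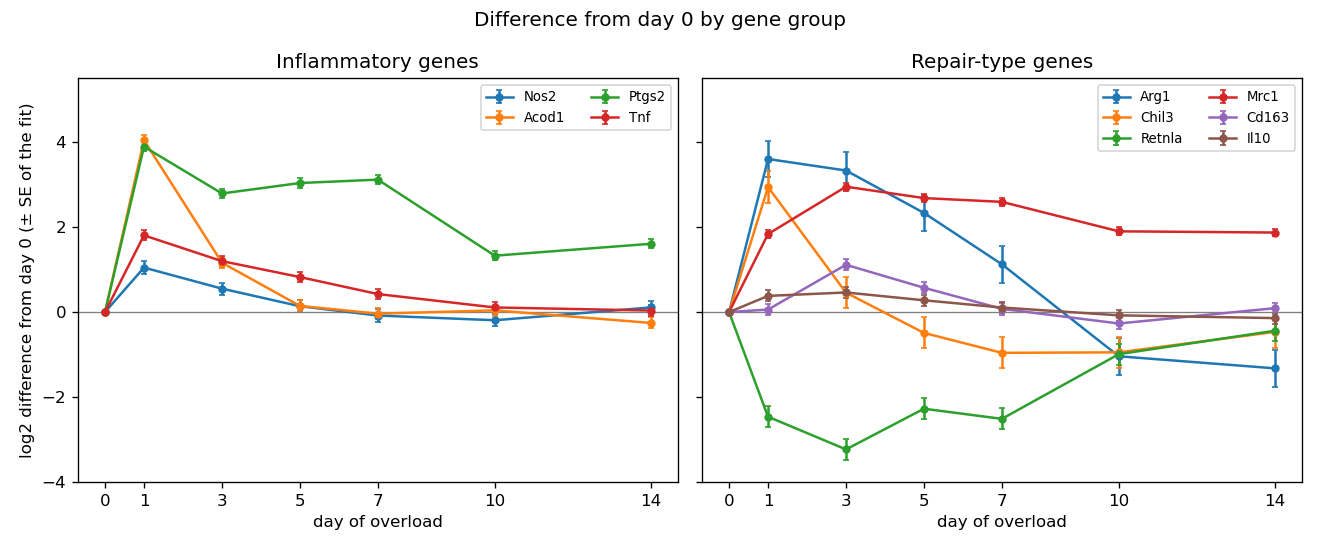
Log2 difference from day 0 (vertical axis) with the standard error of the fit (bars), against the day of overload, for the 4 inflammatory genes (left) and the 6 repair-type genes (right). Acod1 reaches 4.05 and Ptgs2 3.89 on day 1; Mrc1 reaches 2.95 on day 3, and Retnla is lowest on day 3 at -3.23.

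The step from day 1 to day 3 ran in 1 direction for the inflammatory genes and in both for the repair-type genes. All 4 inflammatory genes fell, by 0.50 (Nos2, limma, adjusted p = 0.0201), 0.61 (Tnf, adjusted p = 0.00236), 1.10 (Ptgs2, adjusted p = 2.25e-05) and 2.88 (Acod1, adjusted p = 2.94e-07) on the log2 scale, while 13.2% of all genes were called lower and 21.5% higher. Of the repair-type genes, Mrc1 and Cd163 rose and Chil3 and Retnla fell, the last by 0.77 (limma, adjusted p = 0.0316). The calls of Nos2 and Retnla in this step rested on single pools. Nos2 was not called without the left pool of day 1 (-0.22, limma, adjusted p = 0.153), without the right pool of day 3 (-0.50, adjusted p = 0.0812) or without its left pool (-0.49, adjusted p = 0.0775). Retnla was not called when the right pool of day 1 (-0.68, limma, adjusted p = 0.123), its left pool (-0.86, adjusted p = 0.0585) or the right pool of day 3 (-0.49, adjusted p = 0.249) was left out. Arg1 had a difference of -0.27 (limma, adjusted p = 0.656) and Il10 of 0.08 (adjusted p = 0.657), so neither was called. The group medians were -0.85 and -0.09, against 0.08 for all genes.

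After day 3 the steps were fewer. From day 3 to day 5 Acod1 fell by 1.02 (limma, adjusted p = 0.000748) and Cd163 by 0.54 (adjusted p = 0.0272), and Retnla rose by 0.96 (adjusted p = 0.0322), beside 4.74% of all genes called lower and 6.41% higher. The calls of Cd163 and Retnla in that step also ended with single pools left out: Cd163 without either pool of day 3 (limma, adjusted p = 0.157 and 0.0755) or the left pool of day 5 (adjusted p = 0.189), and Retnla without the right pool of day 3 (adjusted p = 0.241) or of day 5 (adjusted p = 0.157). From day 5 to day 7 limma called 0 of the 10 genes, with 3 at an unadjusted p under 0.05, and 1.15% of all genes. Day 10 against day 7 gave falls of Ptgs2, Arg1 and Mrc1 (by 0.69, limma, adjusted p = 0.00117) and the rise of Retnla, beside 9.52% of all genes lower and 6.95% higher. From day 10 to day 14 limma again called 0 of the 10, with 4 at an unadjusted p under 0.05, and 4.67% of all genes.

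Longer intervals were compared as well. From day 1 to day 7 all 4 inflammatory genes fell, Acod1 16.9-fold, and of the repair-type genes Arg1 fell 5.57-fold and Chil3 15.0-fold while Mrc1 rose 1.69-fold and Retnla, Cd163 and Il10 were not called, beside 19.1% of all genes lower and 25.4% higher (limma, adjusted p under 0.05). From day 3 to day 14 the 4 inflammatory genes fell with a median of -1.17, and Arg1, Mrc1, Cd163 and Il10 fell while Retnla rose, with a repair-type median of -0.97, beside 16.3% of all genes lower and 17.6% higher. Nos2 had the smallest fall (-0.44, limma, adjusted p = 0.0334), which was not called without either pool of day 3 or the right pool of day 14 (adjusted p = 0.120, 0.106 and 0.186). Chil3 had a difference of -0.93 in that interval (limma, adjusted p = 0.0756), and without the left pool of day 14 it was -1.46 and called (adjusted p = 0.0155). Without both pools that stood apart it was -0.93 and called (limma, adjusted p = 0.0441), and with the hepatocyte covariate it was -1.16 and called (adjusted p = 0.0349). The 2 comparisons share no day, but both share pools with those described before.

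**Figure D4:**
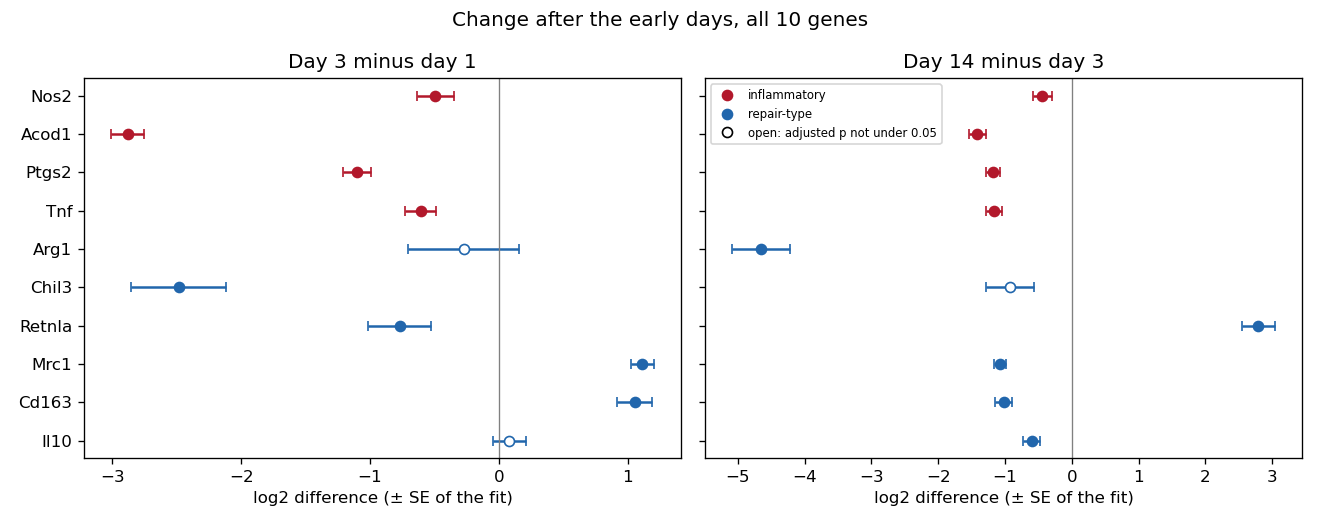
Log2 difference (horizontal axis) with the standard error of the fit (bars) for each of the 10 genes, day 3 minus day 1 on the left and day 14 minus day 3 on the right. Red marks inflammatory and blue repair-type genes, and open points were not called; on the left the inflammatory genes lie between -2.88 and -0.50 and Mrc1 and Cd163 lie above 0, and on the right Arg1 is at -4.66 and Retnla at 2.79.

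The genes around the members were read from lists of their pathways, whose counts stand against the shares of all genes called: 20.3% higher and 34.7% lower on day 1, 24.2% and 23.4% on day 3, 28.5% and 37.8% on day 7, and 21.4% and 20.7% on day 14. Of 24 measured partners of inflammatory signalling, 20 were higher and 2 lower on day 1, and 13 higher and 3 lower on day 14. Without both pools that stood apart they were 19 and 2 on day 1 and 12 and 2 on day 14. The chemokine Cxcl10 (4.45 ± 0.14), the cytokine Il1b (4.36 ± 0.19) and Il6 (3.51 ± 0.14) led on day 1 with log2 differences of the size of Acod1 and Ptgs2. Of 11 genes of tumour necrosis factor processing and receptors, 8 were higher and 1 lower on day 1. The receptor Tnfrsf1b had a difference of 2.10 ± 0.12 on day 1 and of 1.05 on day 14, when Tnf itself was not called. Timp3, the inhibitor of the protease that sheds Tnf, fell by 1.12 on day 3.

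Of 16 measured genes of prostaglandin synthesis and receptors, 10 were higher and 4 lower on day 1, 10 were higher and 2 lower on day 7, and 8 were higher and 1 lower on day 10. Without both pools that stood apart, 8 were higher on day 1 and 11 on day 7, and with a change over 2-fold also required 3 were higher on each of these 3 days. The haematopoietic prostaglandin D synthase Hpgds (2.56 ± 0.14) and the phospholipase Pla2g4a (2.27 ± 0.10), which frees arachidonate, led on day 7, and the thromboxane synthase Tbxas1 led on day 3 (2.49 ± 0.12). Ptges2, a prostaglandin E synthase, fell by 0.91 ± 0.09 on day 7.

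Of 16 measured genes of arginine, itaconate and nitric oxide metabolism, 4 were higher and 7 lower on day 1 and 2 were higher and 7 lower on day 7. These shares of lower genes were near those of all genes, and without both pools that stood apart the counts were 4 and 9 on day 1 and 5 and 6 on day 7. Those that rose on day 1 were led by the mitochondrial arginase Arg2 (3.21 ± 0.25), by Gch1 (1.84), which starts synthesis of the cofactor of nitric oxide synthases, and by the ornithine decarboxylase Odc1 (1.58). The arginine transporter Slc7a1 had a difference of 1.06 on day 3. The neuronal synthase Nos1, which muscle fibres express, fell by 2.54 ± 0.10 on day 7, and the isocitrate dehydrogenase Idh2 fell by 1.63 on day 1.

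Of 25 measured genes of interleukin 4 signalling and repair, 15 were higher and 3 lower on day 1 and 15 were higher and 2 lower on day 14, or 15 and 2 on day 1 and 12 and 3 on day 14 without both pools that stood apart. The receptor chains Il13ra1 (2.94 ± 0.12 on day 1) and Il4ra (2.92 ± 0.10 on day 3) rose on days when Retnla was called lower than day 0. The growth factor Igf1 was among the 3 largest rises of this list on day 10 (1.74 ± 0.22). Of 15 genes of interleukin 10 signalling and haemoglobin clearance, 9 were higher and 1 lower on day 3, or 10 and 1 without those pools. The haem oxygenase Hmox1 rose by 4.16 ± 0.09 on day 3, the day on which Cd163 was highest, and the receptor chains Il10ra (2.34 ± 0.12) and Il10rb (1.93 ± 0.09) rose on that day, against 0.46 for Il10. The iron exporter Slc40a1 fell by 0.87 on that day. The list medians on day 3 were 0.97 for inflammatory signalling, 0.27 for interleukin 4 and repair and 1.02 for interleukin 10 and haemoglobin clearance, against -0.07 for all genes.

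Of 10 measured markers of resident macrophages, cells that also express Cd163 and Mrc1, 3 were higher and 4 lower on day 1, near the shares of all genes, and 4 were higher and 0 lower on day 3. Without both pools that stood apart the counts were 2 and 3 on day 1 and 5 and 0 on day 3. The folate receptor Folr2 had a difference of 1.97 ± 0.11 on day 3 and the chemokine Ccl8 of 4.08 on day 5. The list as a whole moved less, with a median of 0.24 on day 3 and 0.28 on day 5. On day 7, 4 of these markers were higher and 4 lower, beside 28.5% and 37.8% of all genes. Of 12 eosinophil and mast cell markers, 3 were higher and 3 lower on day 1 and 1 was higher and 7 lower on day 7, or 2 and 3 and then 1 and 6 without those pools.

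Genes whose log2 intensity ran most like each member were found by Pearson correlation over the 14 arrays, among 4254 genes called over the time course whose day means spanned at least 1 log2 unit. The arrays share days, so these values are descriptions. Acod1 was nearest to Mxd1 (0.994) and to the cytokine Il1a (0.988), and Tnf to Ier3 (0.989) and Slfn1 (0.984). Ptgs2 was nearest to Baz1a (0.985) and Nos2 to Ankrd37 (0.973). Chil3 was nearest to Pglyrp1 (0.976), a granule protein of neutrophils.

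Among the repair-type genes, Mrc1 was nearest to the endocytic adaptor Dab2 (0.993) and Arg1 to Gclm (0.963), a subunit of the enzyme that starts glutathione synthesis, and Plin2 (0.949), a lipid droplet protein. Retnla ran most like Ppp2r3a (0.978) and Trp53inp2 (0.977). Cd163 and Il10 had the least close neighbours, Il13ra2 (0.892) and Mthfd2 (0.915).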

How the data were processed

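RNA of pooled plantaris muscle was measured on 14 Affymetrix arrays. The deposited values, 1 per probe set, were made by the authors with Partek, per the submitters' processing notes. That they are linear intensity was inferred from the values. The version of Partek, the summarising and normalizing method and the genome build are not given in the sources used here. The labels give 100 ng of RNA in 1 place and 250 ng in another. Array medians lay between 242.8 and 254.9, so the arrays look already scaled to each other, and no further scaling was applied. The number of arrays limits the precision.

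Log2 of the deposited intensity was fitted with limma 3.58.1 (R 4.3.3), 1 mean per day over all 14 arrays, for 19938 genes with a probe set of 1 symbol (brightest where several). P-values are two-sided and Benjamini-Hochberg adjusted over all genes within each of 13 comparisons; a gene was called under 0.05. On simulated data for day 3 against day 0, 74% of genes changed 1.5-fold and 100% of those changed 2-fold or more were recovered, with 9 false calls. The changed genes were drawn from all genes, whose median SE was 0.099. They were far fewer than the genes called in the data, so the shares recovered may differ there. Recovery is lower for noisier genes such as Arg1 (SE 0.43) and Chil3 (SE 0.37). The 2.06-fold difference of Arg1 on day 10 was not called. The 10 genes, the lists and the tests were chosen with earlier results of these data known. All 10 genes are named; from each list, genes come from the 3 largest called rises and 2 largest called falls of a day; and like genes from the 3 highest correlations. Csf3r and Alb are shown by pool beside genes such cells could express. Ckm is shown as the tissue check. Listed genes without a probe set of their own symbol are not used here. Promoter sequences and coordinates are from RefSeq (GRCm38.p6). The alternatives were other scaling, filters, priors, thresholds, probe set rules, array subsets, side and a hepatocyte covariate; F test alternatives were chosen after seeing the data.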

Additional observations from a re-analysis of the deposited data

How the results depend on the processing

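Of the 60 differences from day 0, over every alternative fitted, 1304 values kept direction and side of the threshold, 39 lost a call, 8 gained one and 17 changed sign, none of the last from a called value; of 34 steps between later days the counts were 750, 21, 3 and 3, and those settings and the F test's were chosen after seeing the data. Many of these fits could not change the size or sign of a difference, only its call, so their kept direction was fixed beforehand. Among them were the fits without a pool of a day not compared, with another prior or with the side block. So were those with only the arrays compared and with the mean of probe sets, since each gene had 1. With over 2-fold also required, the genes called were 2 instead of 4 on day 10, 5 instead of 8 from day 1 to day 3 and 1 instead of 3 from day 3 to day 5. With only the arrays of the days compared they were 5 from day 3 to day 5, and 1 instead of 0 from day 5 to day 7 and from day 10 to day 14. Without day 0 left and day 1 right together they were 5 from day 3 to day 5 and 2 from day 5 to day 7; that fit sets opposite sides against each other on days 0 and 1. Leaving out each pool in turn gave 8 to 9 genes called on day 1, 8 to 9 on day 3, 6 to 7 on day 5, 3 to 6 on day 7, 2 to 5 on day 10 and 2 to 3 on day 14. It gave 6 to 8 from day 1 to day 3, 1 to 4 from day 3 to day 5, 0 to 1 from day 5 to day 7, 3 to 4 from day 7 to day 10, 0 from day 10 to day 14, 8 to 10 from day 3 to day 14, 7 to 8 from day 1 to day 7, and 10 in the F test. A lone pool is taken to vary like the other days.

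The side as a replicate block called 9, 9, 7, 6, 3 and 3 genes on days 1 to 14, with Il10 gained on day 5 (0.28, limma, adjusted p = 0.0189) and Chil3 lost on day 10 (adjusted p = 0.0619). Over all genes, left minus right correlated above 0.1 in 9 of 21 pairs of days (range -0.583 to 0.438). Il10 was higher in the left pool on all 7 days, and Cd163 on 1 day. These values do not settle whether pools of the same side share more than a label.

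Sign changes were among small differences, and the cause was not tested. Equal array medians gave -0.0035 for Tnf on day 14. Leaving out both pools named above gave -0.25 for Cd163 on day 1, -0.088 on day 7 and -0.072 on day 14. The hepatocyte covariate gave -0.049 for Cd163 on day 7, -0.0078 for Cd163 on day 14, -0.019 for Acod1 on day 10 and -0.014 for Nos2 on day 14. Single pools left out gave ranges of -0.10 to 0.23 for Cd163 on day 1, -0.088 to 0.24 on day 7 and -0.072 to 0.26 on day 14, of -0.10 to 0.026 for Acod1 on day 7 and -0.11 to 0.19 on day 10, and of -0.17 to 0.017 for Il10 on day 10. They gave -0.13 to 0.20 for Tnf on day 14, -0.999 to 0.064 for Chil3 on day 14 and -0.093 to 0.25 for Il10 from day 1 to day 3. Leaving out both pools gave -0.093 for that step. With 2 pools a day, no test for outlying pools was possible, and Il10 and Chil3 were dim.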
